A study of Mus musculus with 20 samples.

Results

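The genes described here are 9 genes of the ventral telencephalon and of the interneurons that arise from it: Nkx2-1, Dlx1, Dlx2, Dlx5, Dlx6, Lhx6, Lhx8, Sst and Gad1. They were chosen by name, as genes that define the Nkx2.1 lineage or its interneurons, out of 21728 protein-coding genes. The authors' table of ATAC-seq consensus regions assigned 20 of its 32120 regions to them as the nearest gene, with 6 at Nkx2-1, 5 at Dlx2, 3 at Sst, 2 at Gad1, 1 each at Dlx1, Dlx5, Dlx6 and Lhx8, and 0 at Lhx6. Peaks were also collected in a window around each gene, which is the gene body with 20 kb on each side. The windows of Dlx1 and Dlx2 overlap, as do those of Dlx5 and Dlx6, so that each pair shares most of its peaks.

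The measured cells descend from Nkx2-1-expressing progenitors and were sorted for GFP from the neocortex of mouse pups at postnatal day 7 or 8. Tcf4 cKO pups carried both floxed Tcf4 alleles with Nkx2.1-Cre and are compared with pups labelled WT, which carried Nkx2.1-Cre too, and in both genotypes the driver switched on the Ai3 reporter. ATAC-seq, which reads open chromatin from transposase insertions, and CUT&Tag for the histone marks H3K4me1, H3K27ac and H3K27me3 were each run on 2 WT and 2 Tcf4 cKO libraries of 50000 cells. Tcf4 binding was measured in 2 anti-Flag CUT&Tag libraries of 200000 nuclei, from a Tcf4-tag line in which the Flag and HA tag sits at the C-terminus of Tcf4 in Nkx2.1-Cre cells. The labels do not say how many pups made up a library, so the spread between libraries may be technical. With 2 libraries against 2, a two-sided exact permutation test cannot give a p-value below 0.333, and genotypes are therefore described by whether their libraries overlap.

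In the embryonic ventral telencephalon, the homeobox factor Nkx2-1 specifies progenitors of the medial ganglionic eminence. The Dlx genes, which lie in convergently transcribed pairs, act with it and after it in GABAergic progenitors, and the LIM-homeobox factors Lhx6 and Lhx8 act downstream in migrating interneurons and in ventral projection neurons. Gad1 encodes the enzyme that makes GABA, and Sst the peptide somatostatin, which marks a large class of cortical interneurons. H3K4me1 marks primed or active enhancers, H3K27ac marks active ones, and H3K27me3 is the mark of Polycomb repression. Tcf4 is a basic helix-loop-helix factor, which binds E-boxes of the form CANNTG.

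Marker promoters did not set the sorted cells apart by open chromatin. Within 1 kb of a transcript start, ATAC-seq peaks lay in both WT libraries at 5 of the 6 interneuron markers (Gad1, Gad2, Slc32a1, Dlx1, Lhx6 and Sst), 5 of 6 markers of oligodendrocyte precursors, 4 of 6 of astrocytes, 4 of 6 of cortical projection neurons, 4 of 5 of microglia and 3 of 5 of endothelial cells, where 67.3% of all protein-coding genes had one. In Tcf4 cKO these counts were 3, 5, 5, 3, 2 and 3, against 66.5% of all genes. All 6 interneuron markers also had H3K27me3 peaks in both libraries of each genotype, against 17.3% of all genes in WT and 17.5% in Tcf4 cKO. None had H3K27ac in both libraries of either genotype, against 54.1% and 51.2% of all genes. The markers of cortical projection neurons had H3K27me3 at 6 of 6 genes in each genotype, and the microglial markers at 0 of 5. Those of oligodendrocyte precursors had it at 2 of 6 in WT and 4 of 6 in Tcf4 cKO, those of astrocytes at 2 and 1 of 6, and the endothelial markers at 3 of 5 in each. H3K27ac was found at few of the other markers too, in the order above at 1, 3, 0, 0 and 1 in WT and at 1, 3, 1, 0 and 1 in Tcf4 cKO. In bulk samples, a smaller share of interneurons and less open chromatin per interneuron cannot be told apart. Peak lists ran from 15085 peaks in a WT H3K27me3 library to 72790 in a Tcf4 cKO H3K4me1 library. The H3K4me1 lists were longer in both Tcf4 cKO libraries (72790 and 65049 peaks) than in WT (51510 and 59526), and the Tcf4 lists differed within the pair (28606 and 16834). No read counts per library were used here, so the depth is known only through these numbers.

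The DNA at the regions that the results turn on is given first, as 75 bases of the plus strand of GRCm38 on each side of a Tcf4 summit or of the centre of a region, with every CANNTG in capitals. The first 3 sequences are the Tcf4 summits bound in both libraries in the windows of Sst, Dlx2 and Nkx2-1. The first and the third lie outside exons, and the second lies in the coding sequence of Dlx2.

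Sst upstream Tcf4 summit, chr16:23898158-23898308: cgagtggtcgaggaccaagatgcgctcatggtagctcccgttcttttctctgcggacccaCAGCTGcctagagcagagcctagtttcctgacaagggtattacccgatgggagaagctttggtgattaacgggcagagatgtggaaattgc
Dlx2 Tcf4 summit, chr2:71546062-71546212: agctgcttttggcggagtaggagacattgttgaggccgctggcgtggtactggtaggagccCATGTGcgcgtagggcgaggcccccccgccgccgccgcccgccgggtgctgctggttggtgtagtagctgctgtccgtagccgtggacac
Nkx2-1 downstream Tcf4 summit, chr12:56519779-56519929: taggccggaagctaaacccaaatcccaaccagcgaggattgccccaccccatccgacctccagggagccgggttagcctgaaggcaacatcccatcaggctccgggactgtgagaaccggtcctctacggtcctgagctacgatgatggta

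The next 4 are centres of regions whose accessibility differed between the genotypes: the region downstream of Sst with the largest fall, the Dlx2 region with the largest fall, the Dlx2 region that was higher, and an Nkx2-1 region that was higher. The last had ATAC-seq peaks only in Tcf4 cKO, although its mean of log2 normalized reads in WT was 7.06. The 3 regions at Sst and Dlx2 are intergenic, and the one at Nkx2-1 lies within the annotated span of the neighbouring pseudogene Sfta3-ps, outside its exons.

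Sst downstream region centre, chr16:23888071-23888221: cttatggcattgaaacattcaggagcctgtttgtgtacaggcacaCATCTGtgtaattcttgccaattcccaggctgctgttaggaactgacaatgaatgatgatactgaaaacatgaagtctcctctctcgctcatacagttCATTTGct
Dlx2 far upstream region centre, lower, chr2:71598759-71598909: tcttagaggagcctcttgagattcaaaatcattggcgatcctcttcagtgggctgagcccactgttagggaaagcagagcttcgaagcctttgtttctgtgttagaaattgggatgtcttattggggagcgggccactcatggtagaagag
Dlx2 far upstream region centre, higher, chr2:71629423-71629573: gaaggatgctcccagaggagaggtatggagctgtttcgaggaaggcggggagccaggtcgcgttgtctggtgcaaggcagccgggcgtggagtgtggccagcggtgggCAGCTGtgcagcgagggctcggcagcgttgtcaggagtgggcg
Nkx2-1 downstream region centre, higher, chr12:56525315-56525465: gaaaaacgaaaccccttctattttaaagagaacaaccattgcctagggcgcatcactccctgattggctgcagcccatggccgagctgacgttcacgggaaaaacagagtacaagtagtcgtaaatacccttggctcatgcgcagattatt

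H3K27me3 was the mark that these genes shared. A peak within 1 kb of the gene's 5′ end was present in both libraries at 7 of 9 genes in WT and at the same 7 in Tcf4 cKO (Nkx2-1, Lhx6, Dlx1, Dlx2, Dlx5, Dlx6 and Sst), where 15.0% and 14.9% of all protein-coding genes had one. Lhx8 and Gad1 have further transcript starts away from the annotated 5′ end. When any transcript start was allowed, 9 of 9 genes had H3K27me3 in both libraries of both genotypes, against 17.3% of all genes in WT and 17.5% in Tcf4 cKO. The fold enrichment of these peaks over the local background was highest at Sst, at 2.58 and 2.78 in WT and 2.76 and 3.19 in Tcf4 cKO. The libraries of the genotypes overlapped there. The fold enrichment was higher in both Tcf4 cKO libraries at 3 of 9 genes, Dlx2, Dlx5 and Dlx6, and lower in both at 1, Nkx2-1. Among the 2829 genes with H3K27me3 in all 4 libraries, 18.6% were higher and 25.3% lower in this way. Dlx5 had 1.62 and 1.59 in WT and 1.78 and 1.78 in Tcf4 cKO, Dlx6 had 1.46 and 1.48 in WT and 1.62 and 1.53 in Tcf4 cKO, and Dlx2 had 1.59 and 1.62 in WT and 1.72 and 1.64 in Tcf4 cKO. Nkx2-1 had 1.81 and 1.75 in WT and 1.64 and 1.63 in Tcf4 cKO.

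Promoters were open at most of the same genes, though in bulk samples the open and the H3K27me3-marked copies may lie in different cells. ATAC-seq peaks lay at the gene's 5′ end in both WT libraries at 6 of 9 genes (background 62.9%) and in both Tcf4 cKO libraries at 5 of 9 (background 61.9%). With any transcript start, 8 of 9 genes were open in each genotype, against 67.3% and 66.5% of all genes, and Sst was the exception. The Sst promoter had no ATAC-seq peak in either WT library and 1 in Tcf4 cKO replicate 1, with a fold enrichment of 4.08. H3K4me1 was present at the 5′ end of 4 genes in WT (background 26.3%) and 5 in Tcf4 cKO (background 41.4%), and Dlx1, Dlx2 and Dlx5 had it in all 4 libraries.

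H3K27ac was scarce. No gene of the 9 had an H3K27ac peak at its 5′ end in both libraries of a genotype, where 49.9% of all genes had one in WT and 46.9% in Tcf4 cKO. With any transcript start, only Nkx2-1 had one, with fold enrichments of 2.63 and 2.63 in WT and 2.30 and 2.32 in Tcf4 cKO, against 54.1% and 51.2% of all genes. Lhx8, Dlx2, Dlx5, Dlx6 and Gad1 each had H3K27ac in WT replicate 1 and not in WT replicate 2, so 1 library decided these values. Without WT replicate 2, 4 genes had H3K27ac at the 5′ end in WT, and without Tcf4 cKO replicate 1, 2 had it in Tcf4 cKO. Lhx6, Dlx1 and Sst had none in any library.

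**Figure D1:**
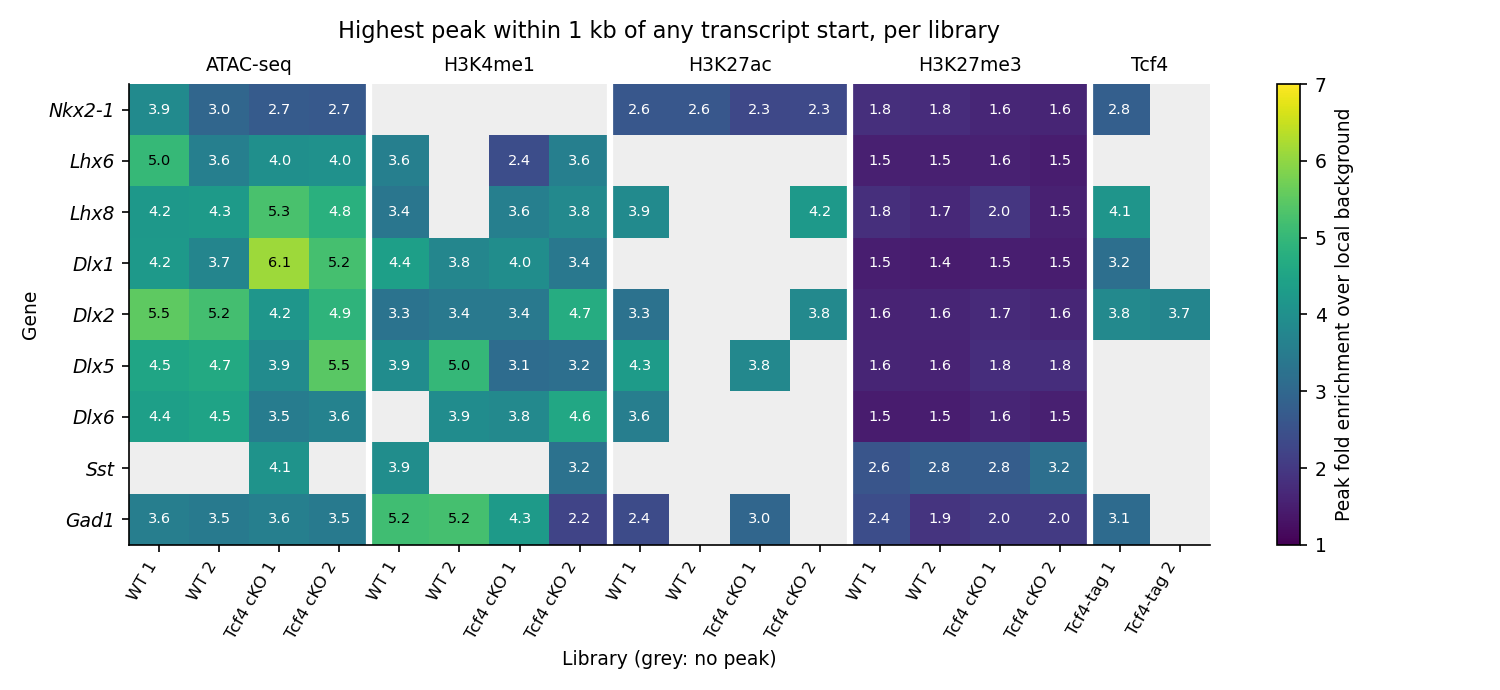
Fold enrichment of the highest peak within 1 kb of any transcript start of each gene (rows) in each of 18 libraries (columns), with grey where the library had no peak. H3K27me3 fills all 4 columns at all 9 genes, whereas H3K27ac fills all 4 only at Nkx2-1, and Tcf4 fills both columns only at Dlx2.

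Across the windows, H3K27me3 covered far more of these genes than of most others. The median over the 9 genes was 16.9% of the window in WT, against 0.267% over all protein-coding genes. Dlx6 was the most covered, with 40.3% and 44.1% in the WT libraries, and its WT mean of 42.2% ± 2.69 (SD, n = 2) exceeded that of 99.9% of all genes. Dlx1 had 36.1% and 33.3% in WT and 32.7% and 35.2% in Tcf4 cKO, and Dlx2 had 34.0% and 35.2% in WT and 30.5% and 36.2% in Tcf4 cKO. At both of these genes the libraries of the genotypes overlapped. The order went on with Dlx5 (WT mean 29.4%), Lhx6 (16.9%), Nkx2-1 (15.7%), Lhx8 (14.2%), Sst (6.56%) and Gad1 (2.08%). Of the neighbours in this order, Dlx1 and Dlx2, Lhx6 and Nkx2-1, and Nkx2-1 and Lhx8 had overlapping WT libraries.

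H3K27me3 coverage was lower in both Tcf4 cKO libraries than in both WT libraries at 3 of 9 genes, Lhx8, Dlx5 and Dlx6 (background 9.44%), and higher at 0 of 9 (background 13.2%). The background holds many genes with little H3K27me3, with a median of 0.267% in WT. A gene without H3K27me3 in a WT library cannot be called lower, so the background of 9.44% is not a like comparison for these genes. Dlx5 and Dlx6 share a locus, so the 3 genes stand for 2 places in the genome. At the starts of Dlx5 and Dlx6 the fold enrichment given above went the other way and was higher in both Tcf4 cKO libraries. Dlx6 fell from 40.3% and 44.1% to 36.8% and 37.9%. At Dlx5 the WT libraries had 29.1% and 29.8% and the Tcf4 cKO libraries 25.8% and 24.9%. At Lhx8 the values were 13.8% and 14.6% in WT and 9.90% and 11.5% in Tcf4 cKO. With 50 kb on each side the difference at Dlx5 shrank from -4.06 to -1.11 percentage points and that at Dlx6 from -4.80 to -1.89, while that at Lhx8 was -3.47 and became -4.35. Lhx6, which went the other way on average, rested on 1 library, with 16.7% and 17.1% in WT and 22.9% and 17.1% in Tcf4 cKO. The H3K27me3 lists of Tcf4 cKO covered 24.9 and 21.5 Mb of the genome and those of WT 21.1 and 23.4 Mb, so they did not differ in one direction. Leaving out WT replicate 1 or either Tcf4 cKO library gave 5 genes lower.

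The 9426 bp between Dlx1 and Dlx2 and the 9236 bp between Dlx6 and Dlx5, which hold known forebrain enhancers, were examined separately. Neither interval had an ATAC-seq or Tcf4 peak in any library. H3K27me3 covered 40.5% and 51.5% of the Dlx1 to Dlx2 interval in WT and 52.2% and 50.9% in Tcf4 cKO. It covered 19.3% and 22.5% of the Dlx6 to Dlx5 interval in WT and 19.5% and 18.8% in Tcf4 cKO, and the genotypes overlapped in both intervals. H3K4me1 was present between Dlx6 and Dlx5 in both Tcf4 cKO libraries, covering 6.72% and 5.47%, and in neither WT library.

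H3K4me1 coverage of the window was higher in both Tcf4 cKO libraries at 5 of 9 genes, Dlx1, Dlx2, Dlx5, Dlx6 and Lhx8. The background was 38.2%, with longer H3K4me1 lists in Tcf4 cKO throughout the genome, and the count is not far from it. It was lower at 0 of 9 (background 3.16%). Dlx6 had 0.875% and 3.89% in WT and 5.90% and 6.34% in Tcf4 cKO, so the WT libraries differed from each other by more than WT replicate 2 did from Tcf4 cKO. After division by the covered length of each library, 3 genes were higher and 1 was lower. Without WT replicate 1, and again without WT replicate 2, 2 genes were lower.

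ATAC-seq coverage was lower in both Tcf4 cKO libraries at 1 of 9 genes, Gad1, with 3.20% and 4.36% in WT and 2.51% and 2.74% in Tcf4 cKO (background 21.9%), and higher at 0 of 9 (background 6.29%). WT replicate 2 had the longest ATAC-seq list, of 72308 peaks, and both counts depended on which WT library was kept. Without WT replicate 1, all 9 genes were lower in Tcf4 cKO. Without WT replicate 2, 5 genes were higher and 1 was lower. Nkx2-1 was the most covered gene in every ATAC-seq library, with 11.5% and 13.1% in WT and 11.8% and 12.4% in Tcf4 cKO, and its WT mean exceeded that of 98.8% of all genes.

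H3K27ac coverage was higher in both Tcf4 cKO libraries at 1 of 9 genes (background 7.52%) and lower at 0 of 9 (background 17.4%). The gene was Nkx2-1, with 4.23% and 3.30% in WT and 5.23% and 4.67% in Tcf4 cKO. WT replicate 2 had no H3K27ac in the windows of Lhx6, Dlx1, Dlx2, Dlx5, Dlx6 and Gad1. These genes could therefore not be called lower, and the count of 0 shows no absence of loss there. Among peaks with a -log10 q-value of at least 5, no gene was higher. Without WT replicate 1, 4 genes were higher, and without WT replicate 2, 5 were lower. Sst was the only other gene with H3K27ac in its window in all 4 libraries, at 1.91% and 1.29% in WT and 2.70% and 1.31% in Tcf4 cKO.

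**Figure D2:**
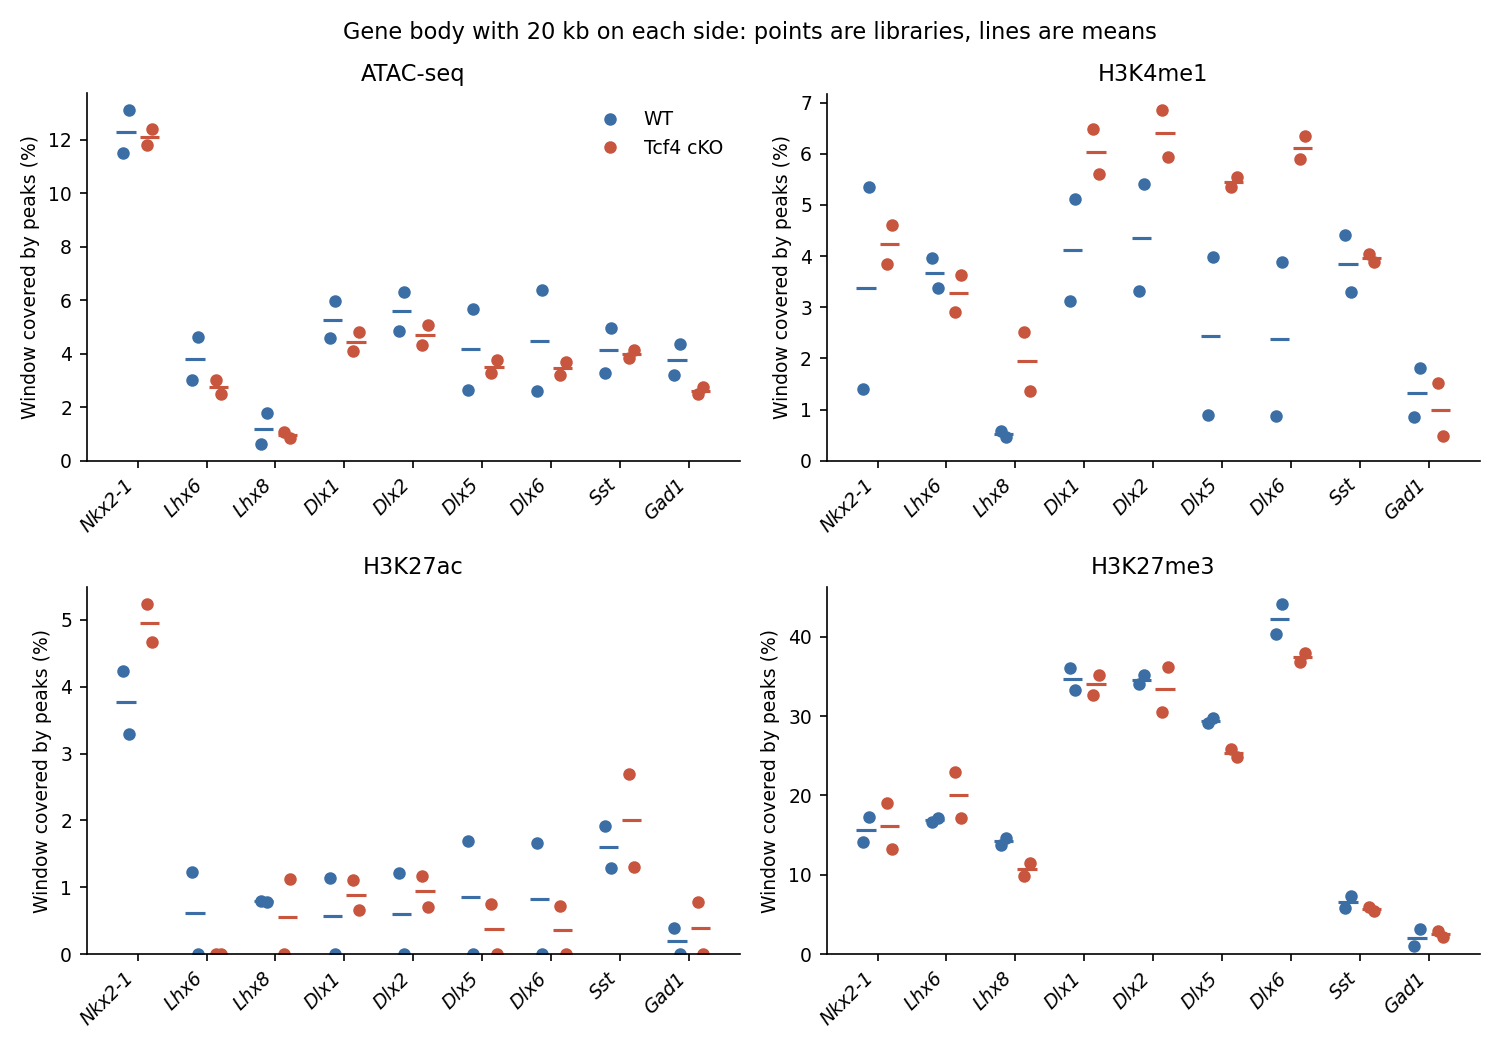
Percent of the gene body with 20 kb on each side covered by peaks (y axis, a separate scale per assay) for each of the 9 genes, with points for single libraries and lines for the means of 2 libraries per genotype. H3K27me3 reaches 44.1% at Dlx6, and its WT points lie above the Tcf4 cKO points at Lhx8, Dlx5 and Dlx6.

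Accessibility was then compared in the 20 consensus regions, with the authors' mean log2 normalized reads of each genotype. The table holds no value per library, so the difference of these means (Tcf4 cKO minus WT) is given without an error, and the fold enrichment of the ATAC-seq peaks in each library is given beside it. Of the 20 regions, 6 were lower by more than 0.5 (background 12.6%) and 2 were higher by more than 0.5 (background 8.38%). The median difference was -0.14, against -0.10 over all consensus regions. The regions just inside the lower limit were those at Gad1 (-0.50) and Nkx2-1 (-0.53), and the one just outside it was the Nkx2-1 promoter (-0.47). After centring on the median of all regions, the Gad1 and Nkx2-1 regions no longer passed and 4 regions were lower.

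By fold enrichment, 11 of the 20 regions were lower in both Tcf4 cKO libraries than in both WT libraries (background 34.7%) and 5 were higher in both (background 12.9%). All 6 regions past -0.5 and both regions past 0.5 moved the same way in the single libraries, where 9.70% of all regions were lower and 4.81% higher by both measures. Both measures come from the same libraries and are not independent. Regions outside promoters made up 12 of the 20, and 5 of these 12 were lower by more than 0.5, where 19.8% of all non-promoter regions were. Of the 8 promoter regions, 1 was lower and 0 were higher, where 3.20% and 1.98% of all promoter regions were.

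**Figure D3:**
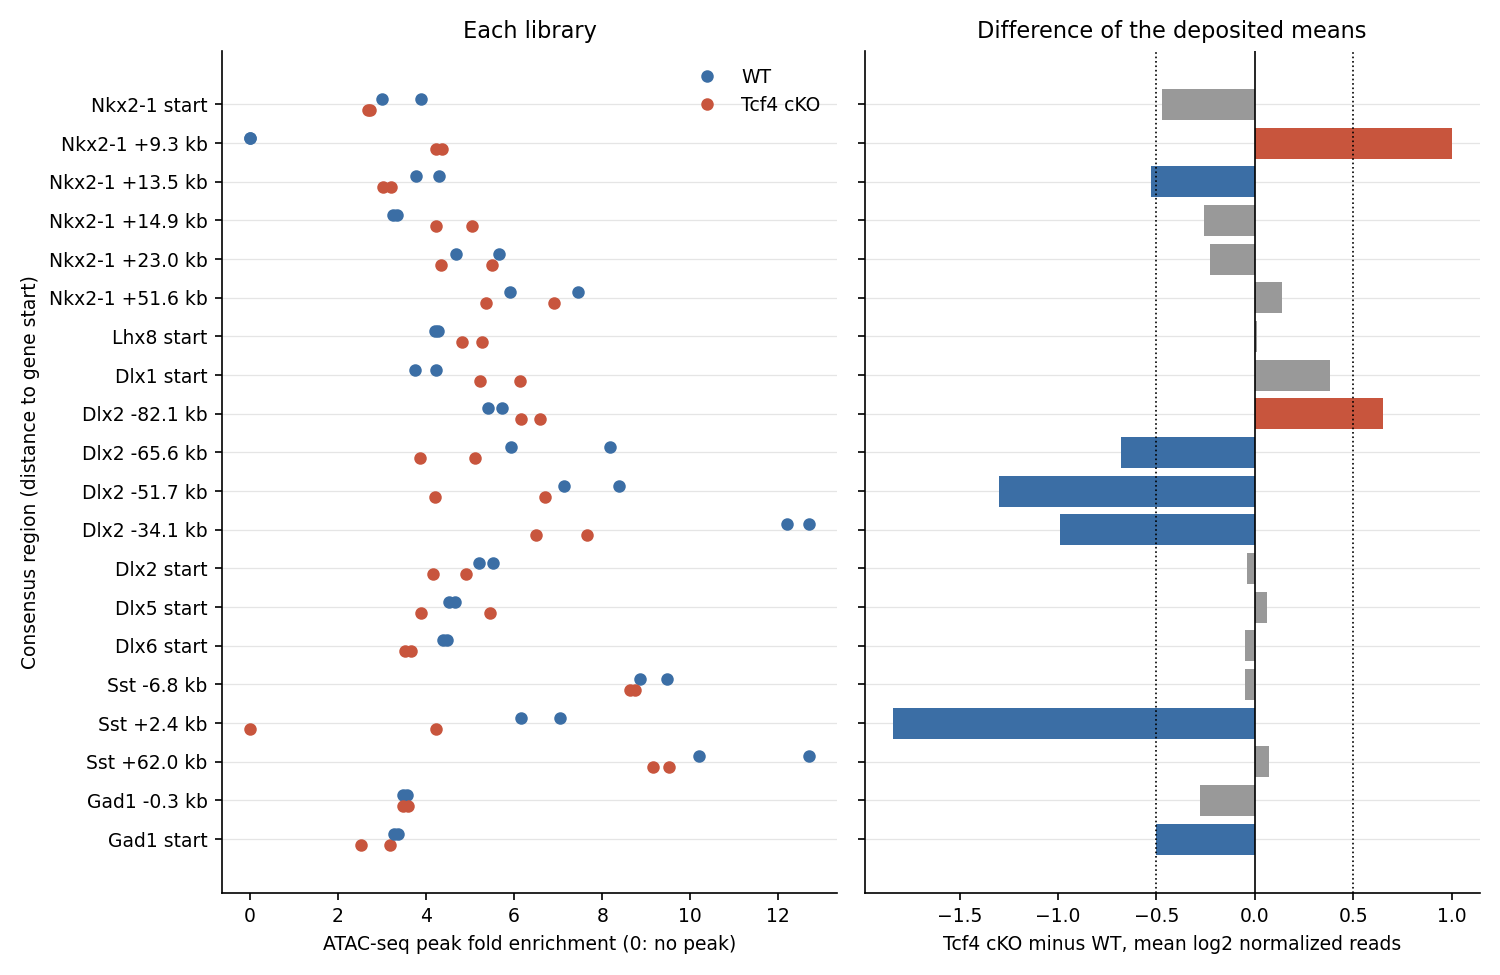
The 20 consensus regions by nearest gene and distance from its start, with the fold enrichment of the ATAC-seq peak in each library on the left (0 where there was no peak) and the Tcf4 cKO minus WT difference of the deposited mean log2 normalized reads on the right. Blue bars pass -0.5 and red bars pass 0.5 (dotted lines); the region downstream of Sst reaches -1.84 and that of Nkx2-1 reaches 1.0.

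The largest fall was at Sst. The region chr16:23887885-23888408, 2.4 kb from the start of Sst and downstream of the gene, had a mean of 5.40 in WT and 3.56 in Tcf4 cKO, a difference of -1.84 on the log2 scale. Its ATAC-seq peak had fold enrichments of 6.15 and 7.04 in WT, while in Tcf4 cKO replicate 1 had no peak and replicate 2 had 4.23. H3K4me1 peaks lay there in both WT libraries, at 3.73 and 4.50, and in neither Tcf4 cKO library. It had no H3K27ac, H3K27me3 or Tcf4 peak in any library. Thus ATAC-seq and H3K4me1 were both lower in this region, whereas at the Sst promoter H3K4me1 was found in 1 library of each genotype, at 3.93 in WT and 3.25 in Tcf4 cKO.

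The other 2 Sst regions, both bound by Tcf4, had near-equal means in the genotypes, while their fold enrichment was lower in both Tcf4 cKO libraries. The region chr16:23897683-23899382, 6.8 kb upstream, had means of 7.62 in WT and 7.57 in Tcf4 cKO, with H3K4me1 and H3K27ac in all 4 libraries. Its ATAC-seq fold enrichment was 8.85 and 9.48 in WT and 8.62 and 8.74 in Tcf4 cKO. Tcf4 peaks covered 42.8% of it, with fold enrichments of 5.88 and 5.25, and its summit sequence above holds a CAGCTG close to the summit. The region chr16:23827960-23828842, 62.0 kb downstream, had means of 7.16 and 7.23, and Tcf4 covered 87.3% of it, with fold enrichments of 4.55 and 7.0. Its ATAC-seq fold enrichment was 10.2 and 12.7 in WT and 9.15 and 9.51 in Tcf4 cKO.

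At Dlx2, 3 of 5 regions were lower, and all 3 lay far upstream. The region chr2:71598439-71599230, 51.7 kb upstream, had the largest fall, from a mean of 6.03 to 4.72 (-1.30). Its ATAC-seq fold enrichment was 7.14 and 8.39 in WT and 4.20 and 6.70 in Tcf4 cKO, so the libraries did not overlap. Tcf4 was found there in replicate 1 only, at 5.05. The region chr2:71580878-71581534, 34.1 kb upstream, fell from 6.67 to 5.68 (-0.99), with 12.7 and 12.2 in WT and 7.66 and 6.5 in Tcf4 cKO. Both of these regions had H3K27me3 in all 4 libraries, of 2.26 and 2.41 in WT and 2.41 and 2.23 in Tcf4 cKO at the latter. H3K4me1 at the 34.1 kb region was found in WT replicate 2 only (3.42) and in both Tcf4 cKO libraries (5.70 and 5.58), the direction opposite to ATAC-seq. The region chr2:71612313-71612983, 65.6 kb upstream, fell from 6.08 to 5.40 (-0.68), with 5.93 and 8.17 in WT and 5.10 and 3.87 in Tcf4 cKO.

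The outermost Dlx2 region was higher. At chr2:71628871-71630126, 82.1 kb upstream, the mean rose from 6.77 to 7.42 (0.65), with fold enrichments of 5.41 and 5.73 in WT and 6.58 and 6.16 in Tcf4 cKO. It had H3K27me3 in all 4 libraries and a CAGCTG in the sequence above, and Tcf4 in replicate 1 only, at 4.08. The Dlx2 promoter region, bound by Tcf4, had means of 7.75 and 7.71, and its fold enrichment was lower in both Tcf4 cKO libraries, 4.16 and 4.90 against 5.51 and 5.20. These distal regions were assigned to Dlx2 by nearest gene alone, and no contact with the gene was measured here.

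**Figure D4:**
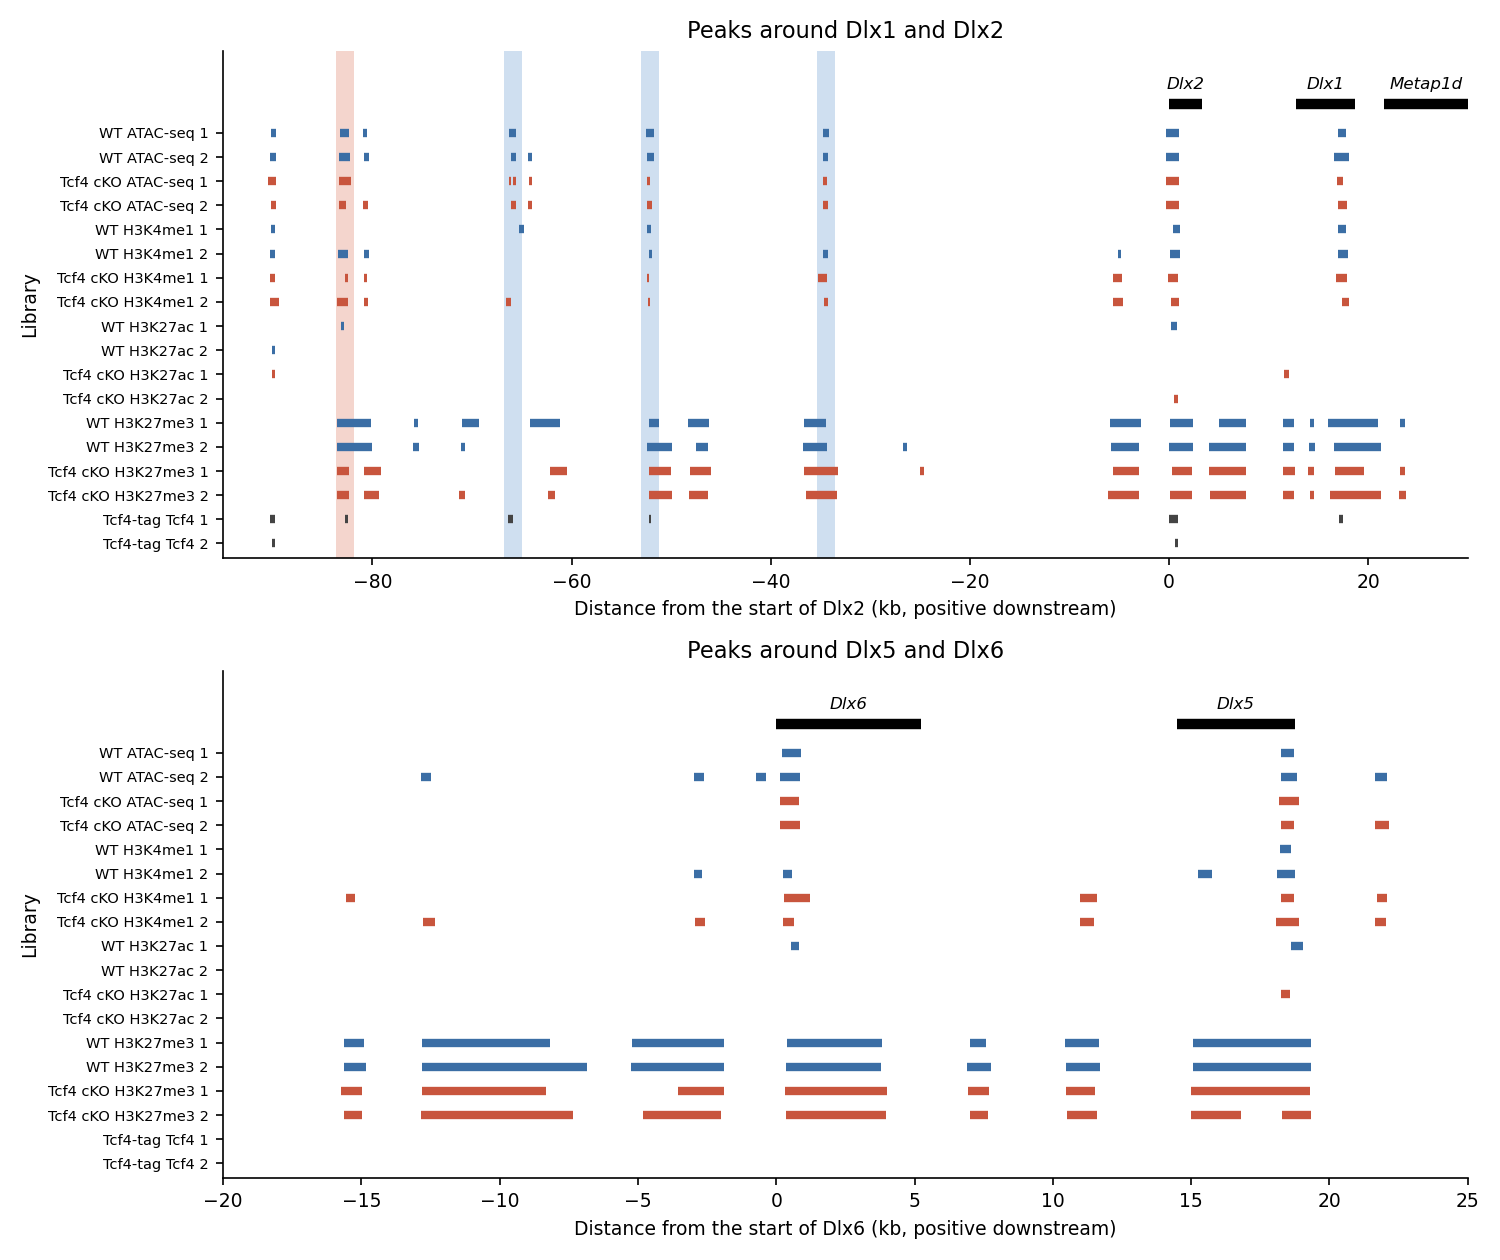
Peaks of each library around Dlx2 and Dlx1 (top) and around Dlx6 and Dlx5 (bottom), by distance in kb from the start of Dlx2 or Dlx6, with WT in blue, Tcf4 cKO in red and Tcf4 in grey. Pale blue bands (drawn wider than the regions) mark the 3 Dlx2 regions with lower accessibility and the pale red band the one with higher accessibility; H3K27me3 blocks span both gene pairs in all 4 libraries, and the Dlx6 to Dlx5 panel has no Tcf4 peak.

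The remaining Dlx promoter regions did not pass the difference of 0.5, and their fold enrichment went in different directions. The Dlx1 region had means of 6.53 and 6.92 (0.38), and its fold enrichment was higher in both Tcf4 cKO libraries, 6.13 and 5.23 against 4.23 and 3.74. The Dlx5 region had means of 6.49 and 6.55, and its libraries overlapped. The Dlx6 region had means of 6.68 and 6.63, and its fold enrichment was lower in both Tcf4 cKO libraries, 3.52 and 3.65 against 4.38 and 4.48. The Dlx1, Dlx5 and Dlx6 regions had H3K27me3 in all 4 libraries. The Lhx8 region, at a promoter, had means of 6.39 and 6.40, and its fold enrichment was higher in both Tcf4 cKO libraries, 5.28 and 4.81 against 4.20 and 4.28.

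At Nkx2-1, the regions downstream of the gene moved in both directions. The region chr12:56525017-56525763, 9.3 kb from the nearest Nkx2-1 transcript start, rose from a mean of 7.06 to 8.06 (1.0). It had no peak in either WT library and fold enrichments of 4.23 and 4.35 in Tcf4 cKO. No peak of H3K4me1, H3K27ac, H3K27me3 or Tcf4 lay there in any library. The region chr12:56520947-56521622, 13.5 kb away, fell from 7.80 to 7.28 (-0.53), with 3.77 and 4.29 in WT and 3.01 and 3.20 in Tcf4 cKO, and had H3K27ac and H3K27me3 in all 4 libraries. The promoter region had means of 9.12 and 8.65 (-0.47), with fold enrichments of 3.88 and 2.99 in WT and 2.73 and 2.67 in Tcf4 cKO.

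At several promoters and some other regions of these genes the fold enrichment was low for the number of reads. Among the 2341 consensus regions whose WT mean lay within 0.25 of that of the Nkx2-1 promoter, the median fold enrichment was 9.26 in WT replicate 1 and 9.05 in replicate 2, and 0.598% and 0.0427% of them were lower than the promoter. The Gad1 regions were also low, with 3.37 and 3.27 at the promoter region chr2:70563307-70564041, against medians of 8.75 and 9.26. The promoter regions of Dlx1 (3.87% and 0.912% of regions lower), Lhx8 (3.55% and 2.29%) and Dlx6 (4.87% and 3.93%) were low too, whereas the Nkx2-1 region 51.6 kb away was not (25.3% and 37.1%). The Nkx2.1-Cre driver is a transgene on a bacterial artificial chromosome with sequence of the Nkx2-1 locus, and reads from its copies cannot be told apart from those of the endogenous gene. The copy number of the transgene in the 2 genotypes was not tested.

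**Figure D5:**
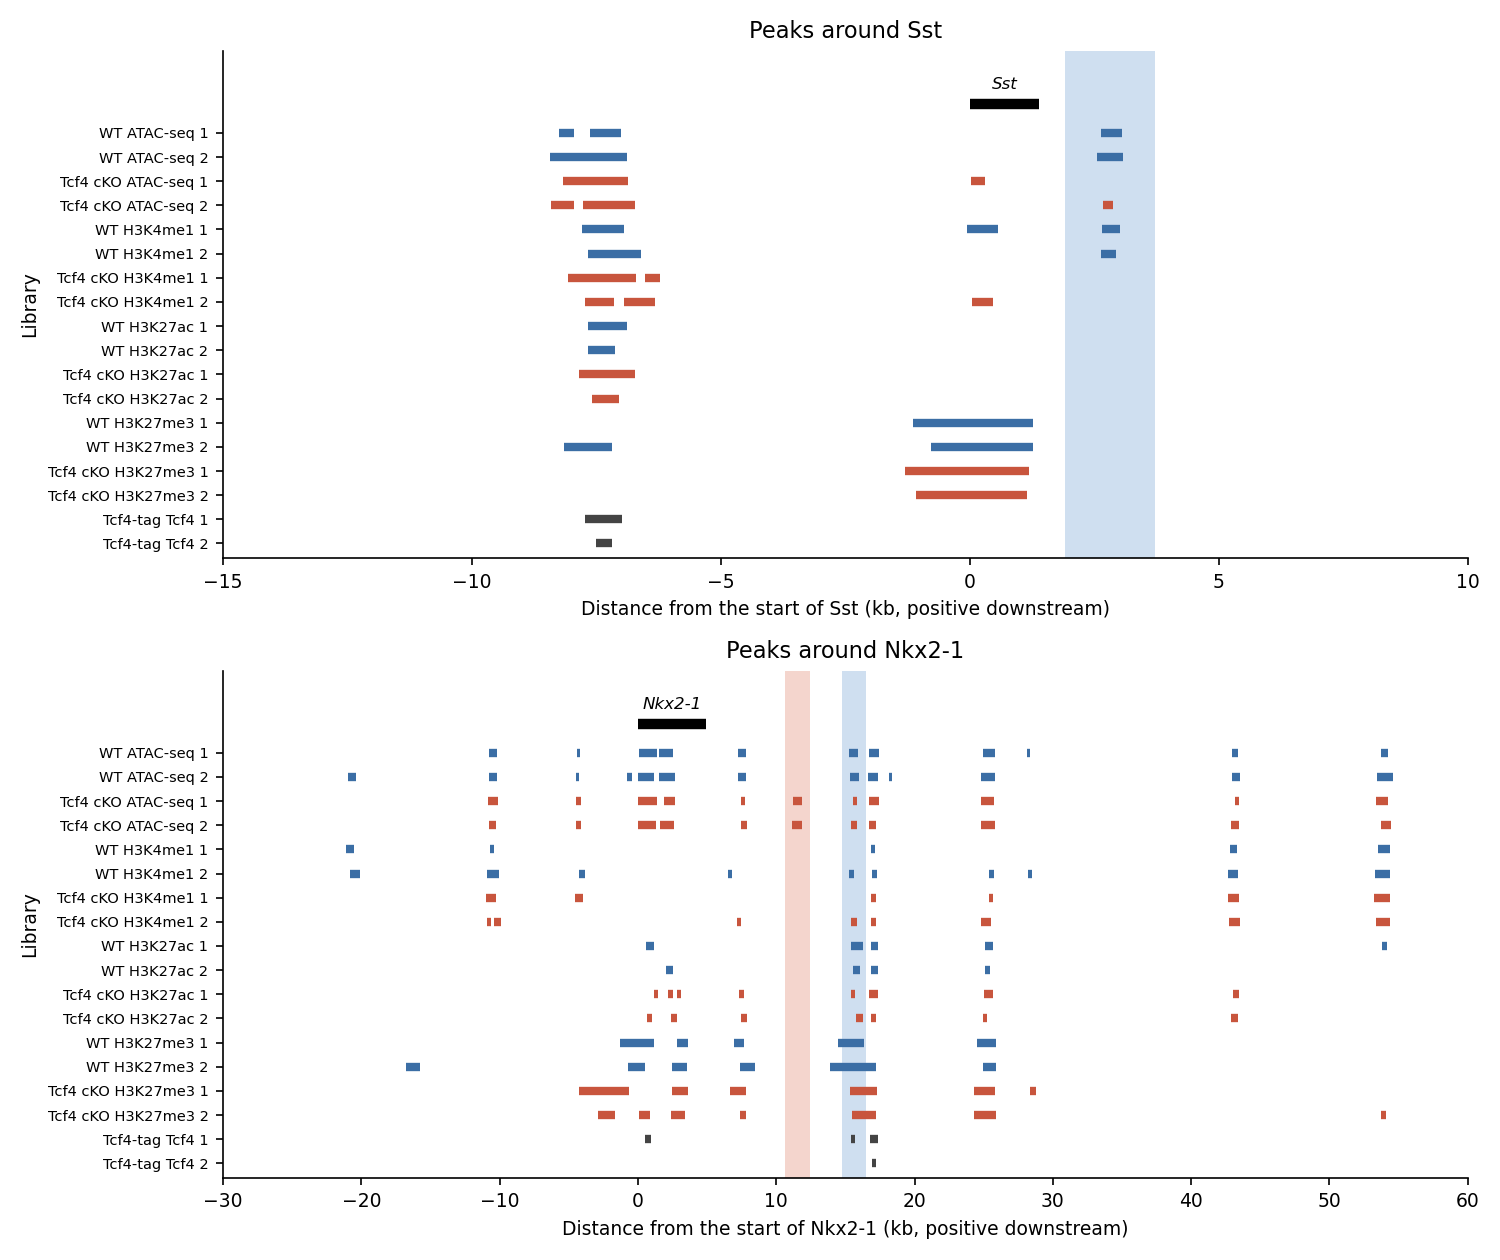
Peaks of each library around Sst (top) and Nkx2-1 (bottom), by distance in kb from the gene's annotated 5′ end, with WT in blue, Tcf4 cKO in red and Tcf4 in grey. The pale blue band downstream of Sst holds ATAC-seq and H3K4me1 peaks in both WT libraries and 1 ATAC-seq peak in Tcf4 cKO, and the pale red band downstream of Nkx2-1 holds ATAC-seq peaks in the 2 Tcf4 cKO libraries only (bands are drawn wider than the regions).

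Gad1 had 2 regions, both annotated as promoters. The region chr2:70563307-70564041 fell from 7.74 to 7.24 (-0.50), with fold enrichments of 3.37 and 3.27 in WT and 3.17 and 2.53 in Tcf4 cKO. The other, chr2:70561067-70561740, had means of 7.82 and 7.54 (-0.28), and its libraries overlapped. H3K27me3 lay on the former in all 4 libraries.

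Lhx6 had no region of its own in the consensus table, although its promoter was open in all 4 libraries, with fold enrichments of 5.03 and 3.58 in WT and 3.99 and 4.03 in Tcf4 cKO. Its window held 2 regions that the table does not assign to Lhx6. One, chr2:36077188-36077912, in an intron of the neighbouring gene, fell from 6.0 to 4.87 (-1.12), with 6.46 and 7.67 in WT and 4.55 and 5.45 in Tcf4 cKO. It had H3K4me1 in all 4 libraries and 1 CAGCTG within 75 bp of its centre. When regions were chosen by window in place of nearest gene, 18 regions were counted, of which 4 were lower and 2 were higher.

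H3K27me3 also lay on the open regions of these genes. It was found in both libraries at 12 of 20 regions in WT and in Tcf4 cKO, against 11.3% and 10.9% of all consensus regions. H3K27ac was found at 5 of 20 in WT (all regions 50%) and at 6 of 20 (all regions 45.2%) in Tcf4 cKO. H3K4me1 was near the background, at 9 of 20 against 49.0% of all regions in WT and 13 of 20 against 64.4% in Tcf4 cKO. The 20 regions come from 8 genes and few loci and are not independent.

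Tcf4 was found at some of these genes. A Tcf4 region seen in both libraries lay in the windows of 4 of 9 genes, where 59.9% of all protein-coding genes had one, and since Dlx1 and Dlx2 share theirs, these are 3 regions. They lay at Nkx2-1 (fold enrichments 3.78 and 4.48), at Dlx2 (3.83 and 3.72) and upstream of Sst (5.88 and 5.25). A Tcf4 peak within 1 kb of the 5′ end in both libraries was found at Dlx2 only, against 35.7% of all genes. Lhx6, Lhx8 and Gad1 had Tcf4 peaks in replicate 1 only, the highest at 6.32 near Lhx8, and Dlx5 and Dlx6 had none in either library. Replicate 2 has the shorter list, and why these replicate 1 peaks were missing there was not tested. With replicate 1 alone, 7 genes had a Tcf4 peak in the window (75.6% of all genes), and with replicate 2 alone 4 had one (63.0%). The mean Tcf4 coverage of the window exceeded that of 73.3% of all genes at Dlx2, 71.4% at Dlx1, 71.2% at Nkx2-1 and 58.1% at Sst. At the other genes it exceeded that of 46.3% (Lhx8), 37.0% (Gad1) and 32.1% (Lhx6), and Dlx5 and Dlx6 had no coverage.

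Of the 20 consensus regions, 4 were covered by Tcf4 over at least 30% of their length (all regions 36.3%). These were the Dlx2 promoter (69.5%), the Nkx2-1 region 14.9 kb away (73.4%) and the 2 Sst regions described above. None of the 8 regions past the difference was among them. Replicate 1 alone had Tcf4 peaks at the Dlx2 regions 51.7, 65.6 and 82.1 kb upstream (5.05, 4.10 and 4.08). It also had them at the Nkx2-1 region 13.5 kb away (3.45) and the lower Gad1 region (2.73). The region downstream of Sst, the Dlx2 region 34.1 kb upstream and the Nkx2-1 region 9.3 kb away had none in either library. By fold enrichment, the Dlx2 promoter and both Sst regions were lower in both Tcf4 cKO libraries (34.7% of all regions). The Nkx2-1 region was higher in both (12.9% of all regions), with 3.34 and 3.24 in WT and 5.04 and 4.22 in Tcf4 cKO. Its mean reads went the other way, from 7.56 in WT to 7.29 in Tcf4 cKO (-0.26). Its WT fold enrichment was also low for its reads, with 1.36% and 0.422% of regions of similar WT mean lower. In replicate 1 alone, 12 of the 20 regions were covered to this extent (58.7% of all regions), and in replicate 2 alone 2 were (32.8%). CAGCTG occurred within 75 bp of the centre of 2 of the 20 regions (against 12.9% of all consensus regions and 15.0% of summits of all 14087 Tcf4 regions), and none of them was among the 6 lower regions. CANNTG, which includes CAGCTG, occurred in 5 of 20 (against 49.2% and 46.5%). TAATTA, a core of many homeodomain motifs, occurred in 0 of 20, against 2.53% and 1.07%. Both strands were searched.

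The footprint table held motifs of 7 of the 9 genes, in 10 versions. Its scores are the authors' means over all sites of a motif from 1 merged alignment per genotype, and they describe the motif and not these genes. The score of the Nkx2-1 motif was 0.2140 in WT and 0.2093 in Tcf4 cKO, a difference of -0.0047, with 300 of 1205 motifs lower. The other 9 versions, of Dlx1, Dlx2, Dlx5, Dlx6, Lhx6 and Lhx8, were slightly higher in Tcf4 cKO, up to 0.0061 for Lhx8. Over all motifs, 46.6% were higher, and the differences of all 10 versions lay between the 5th and 95th percentiles of the table, -0.0234 and 0.0072. The Dlx and Lhx motifs resemble each other and share sites.

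Other genes of ventral progenitors and interneurons were taken from a list of 34. They had 91 consensus regions at 29 genes, of which 14 were lower (15.4%, background 12.6%) and 8 were higher (8.79%, background 8.38%), with a median difference of -0.06. Sox6, a factor of interneurons and oligodendrocyte precursors that acts after Lhx6, had 4 lower regions of 10, between -0.54 and -0.89, and Tcf4 covered between 40.4% and 82.0% of each. The fold enrichment of 3 of these 4 was lower in both Tcf4 cKO libraries. Single lower regions lay at Npy (-1.46), a neuropeptide of Sst interneurons, at Erbb4 (-1.21), the neuregulin receptor of migrating interneurons, at Cort (-1.19), a peptide close to somatostatin, and at Gsx2 (-0.90), a factor of lateral progenitors. Npy had fold enrichments of 7.69 and 8.45 in WT and 4.69 and 5.34 in Tcf4 cKO, and Erbb4 had 8.28 and 8.50 in WT and 5.29 and 5.61 in Tcf4 cKO. Tac1 had 2 lower regions (-0.57 and -0.52), but at the former the fold enrichment was higher in both Tcf4 cKO libraries. Zeb2 and Prox1 each had 1 lower region (-0.53 each).

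Higher regions lay at Reln (0.73), which encodes a secreted protein of neuronal migration, and at Cxcr4 (0.58), a chemokine receptor of migrating interneurons. The libraries overlapped in fold enrichment at Cxcr4, and both Tcf4 cKO libraries were higher at Reln, with 7.01 and 6.54 against no peak and 5.36. Ackr3, a chemokine receptor that works with Cxcr4, had a region at 0.91 and another at -1.06. The ATAC-seq peaks at the promoters of Gad2 and Slc32a1, which encode the other GABA-synthesising enzyme and the vesicular GABA transporter, were found in both WT libraries and in 1 Tcf4 cKO library each. Over the marker lists, ATAC-seq counts in both libraries also went from 4 to 2 of 5 for microglia and from 4 to 3 of 6 for projection neurons, and from 4 to 5 of 6 for astrocytes, and the part of cell composition was not tested. Gad2 had 6.47 and 5.16 in WT and 4.71 and no peak in Tcf4 cKO, and Slc32a1 had 3.47 and 3.88 in WT and no peak and 3.85 in Tcf4 cKO.

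Genes with a like pattern were those with the smallest distance over 18 libraries in the percent of the 5 kb on each side of the gene start covered by peaks. Lhx8 was nearest to Hoxa10 and Insm1 (22.1 and 23.3 percentage points), and Dlx2 to Ovol2 and Onecut2 (15.0 and 15.1). Dlx5 was nearest to Lypd6b and Usp44 (12.6 and 12.9), Lhx6 to Kcnk15 and Pax3 (26.7 and 30), Nkx2-1 to Tle1 and Zbtb42 (25.2 and 25.3) and Sst to Ncmap and Atp2a3 (8.36 and 9.81). These genes had H3K27me3 over 19.6% to 67.3% of the interval in WT. Gad1 was nearest to Pabpc4 and Myo7b (1.01 and 1.54), and the 5 kb on each side of its annotated 5′ end held H3K4me1 as the only mark, in 3 of 4 libraries.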

How the data were processed

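Libraries were grouped by the genotype, assay and replicate in their deposited labels. The authors trimmed reads with Trim Galore, aligned them to mm10 with Bowtie 2, removed duplicates with SAMtools and ran MACS2 separately for every library to call peaks. In the deposited peak lists, each peak has a ratio of its signal to that expected nearby (fold enrichment) and a -log10 q-value, which was used only as a filter. Fold enrichment depends on the reads nearby and is not a read count. The deposited consensus table, made with DiffBind and DESeq2, gives the authors' mean log2 normalized reads of each genotype. The deposited footprint table gives mean TOBIAS scores. Fold changes, p-values and FDRs of the authors' own comparisons in these tables, and the change and p-value of each motif, were not used. The 2 single-cell RNA samples were not analysed here.

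Gene positions came from GENCODE M21 and sequence from GRCm38, the build of the files. Covered lengths, peak overlaps of at least 1 bp and motif matches were computed with pandas 2.3.3, pysam 0.24.0 and numpy 2.4.6 under Python 3.11.15, and matplotlib 3.10.9 drew the figures. These functions were tested on simulated data. A region or gene was called different without a test, from a log2 difference past 0.5 or from libraries that do not overlap, and the share of all 32120 regions or 21728 protein-coding genes called in the same way is given as background. A Tcf4 region is the merger of peaks of both libraries that overlap. The genes, lists and tests were chosen with earlier results of these data known. All 9 genes are named, with the 2 nearest genes in pattern for each, and those of 34 related genes with a region past the difference, except that a few of these genes are not reported here. Sequences were shown at Tcf4 summits in the windows and at regions past the difference, leaving out 1 that overlaps an untranslated region and 3 others for length. The promoter values of the markers Gad2 and Slc32a1, and of the region in the Lhx6 window, were singled out after they were seen. The alternatives tried are given in the closing section.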

Additional observations from a re-analysis of the deposited data

How the results depend on the processing

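No paired analysis was possible because no result comes from a test. Of the 20 consensus regions, 2 were lower and 1 was higher past a difference of 1, and 11 and 5 by fold enrichment of the single libraries, an alternative chosen after seeing the data. For window coverage, peaks with a -log10 q-value of at least 5 gave 2 genes lower in ATAC-seq, 2 higher and 2 lower in H3K4me1, 0 higher in H3K27ac and 6 lower in H3K27me3. Division by the covered length gave 2 lower in ATAC-seq, 3 higher and 1 lower in H3K4me1 and 1 higher in H3K27me3. For promoters, any transcript start gave 8 genes for ATAC-seq in Tcf4 cKO and 1 for H3K27ac in each genotype, and the stricter q-value gave 2 for H3K4me1 in each genotype, 3 for H3K27me3 in Tcf4 cKO and 0 for Tcf4. It also left 1 gene with a Tcf4 region in its window and 1 consensus region covered by Tcf4. With 150 bp on each side, CANNTG was found in 10 and TAATTA in 1 of the regions. Leaving out each library in turn, window counts ranged from 0 to 5 higher and 1 to 9 lower for ATAC-seq, 5 to 6 higher and 1 to 2 lower for H3K4me1, 1 to 4 higher and 0 to 5 lower for H3K27ac, and 0 to 2 higher and 4 to 5 lower for H3K27me3. Promoter counts ranged from 6 to 7 in WT and 6 to 6 in Tcf4 cKO for ATAC-seq, 5 to 5 and 6 to 6 for H3K4me1, 0 to 4 and 1 to 2 for H3K27ac, 7 to 8 in each genotype for H3K27me3, and 1 to 2 for Tcf4. Genes with a Tcf4 region in the window ranged from 4 to 7 and consensus regions covered by Tcf4 from 2 to 12. With 1 library left in a group, fewer libraries have to agree. No difference of a gene called by window coverage changed its direction, although that of Lhx8 in H3K4me1 became 0 under the stricter q-value. For the left-out libraries this was fixed in advance, because the libraries of a called gene do not overlap. Only the other settings could have changed the direction. The cause of these changes was not tested. The 2 libraries per genotype limit every count, and the number of peaks per library stands in for an unknown depth.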
